A study of Mus musculus with 28 samples.

Results

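The alpha-actinins are 4 actin-crosslinking proteins, encoded in the mouse by Actn1, Actn2, Actn3 and Actn4. The genes were taken by symbol from the normalised tables of single mouse embryos. All 4 were among the 15582 genes of the blastocyst table, and 3 (Actn1, Actn2 and Actn4) were among the 16745 genes of the morula table. Actn2 was chosen by its measured level in blastocysts labelled MZ_KO against those labelled WT_flfl, so those values are a description and carry no test. The other 3 members came with it as relatives.

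An alpha-actinin forms an antiparallel rod with an actin-binding domain at each end, and so ties neighbouring actin filaments together. Actn1 and Actn4 are the forms of most non-muscle cells, found in stress fibres, focal adhesions and cell junctions, whereas Actn2 and Actn3 are best known from the Z-disc of striated muscle. In the preimplantation embryo the actin cortex and the junctions anchored to it shape the cells during compaction and the opening of the blastocyst cavity.

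RNA was sequenced from 27 single whole embryos of the CD1 strain in a study of the need for the chromatin architecture protein CTCF at the passage from morula to blastocyst. Among the 14 blastocysts, 3 carried the genotype label WT_flfl, 4 het, 4 M_KO and 3 MZ_KO. Among the 13 morulae, 3 carried the label het, 4 del and 6 MZKO. The meaning of these codes, the alleles behind them and any Cre driver are not stated in the labels. By the usual shorthand, M is a loss of maternal product only, and MZ a loss of maternal and zygotic product alike. Levels are counts per 1000000 reads (CPM), scaled separately for each stage.

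Recovered reads per embryo lay between 7377302 and 27883060 in blastocysts. In morulae they lay between 12136606 and 20414013, except for the embryo del 6 with 1635553 reads. Ctcf, the targeted gene, was at 95.1 ± 6.02 CPM (SD, n = 3) in WT_flfl, 67.5 ± 9.73 (n = 4) in het, 69.5 ± 15.6 (n = 4) in M_KO and 3.62 ± 0.660 (n = 3) in MZ_KO blastocysts. In morulae it was at 38.6 ± 14.6 (n = 3) in het, 2.30 ± 2.68 (n = 4) in del and 4.33 ± 3.60 CPM (n = 6) in MZKO. Trophectoderm markers summed to between 3892 and 9773 CPM among blastocysts and between 243 and 1339 CPM among morulae, each in its own scaling. Haemoglobin and other blood genes ranged from 24.6 to 34338 CPM among blastocysts and from 7.41 to 15242 CPM among morulae. Listed oviduct genes summed to between 0.0459 and 523 CPM among blastocysts and between 1.00 and 1917 CPM among morulae. Listed granulosa genes summed to at most 78.6 CPM in a blastocyst and 140 CPM in a morula. The part of blood, oviduct and granulosa RNA in the results was not tested. The prefix in the sample titles was shared by MZ_KO and M_KO blastocysts, by het and WT_flfl blastocysts, and by het and del morulae. Contrasts within a prefix were therefore MZ_KO against M_KO, het against WT_flfl, and del against het. Sequencing batch and stage cannot be told apart.

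The 4 genes lie on different chromosomes, all on the minus strand of GRCm38. Actn1 (ENSMUSG00000015143) spans chr12:80167547-80260371 and Actn2 (ENSMUSG00000052374) chr13:12269426-12340760. Actn3 (ENSMUSG00000006457) spans chr19:4861216-4877909 and Actn4 (ENSMUSG00000054808) chr7:28893248-28962340. The merged exons cover 5533 bases in Actn1, 3795 in Actn2, 2901 in Actn3 and 6127 in Actn4. The promoters of the 3 genes with tested expression are shown as a description, and their link to expression was not tested. RefSeq promoter windows on GRCm38.p6 were trimmed to the 222 bases that lie before the transcribed part, and are written 5′ to 3′ along the gene's strand, with motif matches in capitals. The windows are chr7:28962361-28962582 for Actn4, chr12:80260392-80260613 for Actn1 and chr13:12340761-12340982 for Actn2.
Actn2: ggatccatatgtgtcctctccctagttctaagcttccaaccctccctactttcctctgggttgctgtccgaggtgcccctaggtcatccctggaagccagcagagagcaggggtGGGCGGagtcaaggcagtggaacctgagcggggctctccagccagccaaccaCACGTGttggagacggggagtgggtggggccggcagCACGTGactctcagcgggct
Actn4: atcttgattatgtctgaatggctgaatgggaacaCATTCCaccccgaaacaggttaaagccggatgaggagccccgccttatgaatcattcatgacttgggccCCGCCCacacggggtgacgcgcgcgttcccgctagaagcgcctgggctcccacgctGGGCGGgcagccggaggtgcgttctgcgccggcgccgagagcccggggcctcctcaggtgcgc
Actn1: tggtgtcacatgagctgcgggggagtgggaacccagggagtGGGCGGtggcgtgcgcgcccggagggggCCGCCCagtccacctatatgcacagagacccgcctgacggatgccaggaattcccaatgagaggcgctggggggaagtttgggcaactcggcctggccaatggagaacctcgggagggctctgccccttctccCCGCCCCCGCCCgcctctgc

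In the Actn2 window the capitals mark the E-box CACGTG, found at 2 places, 84 and 48 bases before the RefSeq start, and 1 GC box (GGGCGG). The E-box was in 5.06% of 32851 RefSeq windows of the same length, and neither the Actn1 nor the Actn4 window held it. The GC box, searched on both strands, was in 28.8% of the windows and in all 3 members, with 4 matches in Actn1 and 2 in Actn4. In the Actn4 window the capitals also mark the TEAD motif GGAATG, read on the opposite strand, which 11.5% of the windows held. The core CTCF motif (CCA, AG and GGC, parted by 2 free bases each; 1.83% of the windows), the TATA box TATAAA (10.1%), the CArG box (1.31%) and the MEF2 site (0.423%) were in none of the 3 windows. GC content was 62.6% in the Actn2, 64.4% in the Actn4 and 68.9% in the Actn1 window, against a median of 51.8%. CpG dinucleotides numbered 8 in Actn2, 21 in Actn4 and 15 in Actn1, against a median of 5. These matches describe the letters only.

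Actn2, the Z-disc form, was low in 3 blastocyst groups and high in the fourth. In WT_flfl blastocysts it was at 40.5, 39.2 and 20.9 CPM, and in het blastocysts at 60.5, 29.8, 22.1 and 39.2 CPM. M_KO blastocysts had 35.8, 47.2, 32.4 and 72.9 CPM. These 3 groups overlapped. MZ_KO blastocysts had 176, 219 and 201 CPM, and the lowest of them lay above every other blastocyst. By group mean the lowest was WT_flfl at 33.5 ± 10.95 CPM (SD, n = 3), followed by het at 37.9 ± 16.6 (n = 4) and M_KO at 47.1 ± 18.4 (n = 4). MZ_KO stood apart from these at 198.6 ± 21.98 CPM (n = 3). The MZ_KO mean was 5.92 times that of WT_flfl, 5.24 times that of het and 4.22 times that of M_KO. On the log2(CPM + 1) scale, the differences were 2.58, 2.45 and 2.12. They are given with no test, because the MZ_KO embryos chose the gene. The comparison with M_KO stayed within a title prefix. Between M_KO and het, which the choice did not use, limma gave 0.33 (SE 0.31, adjusted p = 0.878). Over the alternatives this difference ranged from 0.10 without M_KO 5 to 0.58 without het 3 (limma adjusted p from 0.824 to 0.9997), and it was 0.11 without het 6.

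Morulae played no part in the choice of Actn2. Levels are not compared between the stages, whose tables were scaled separately. Het morulae had 64.8, 73.1 and 168 CPM, with embryo 7 far above the other two. The 4 del morulae were close together at 125, 131, 127 and 114 CPM, the last from only 197 reads. MZKO morulae ranged from 101 to 229 CPM with a median of 187, and embryos 1 and 8 were the lowest. Het 7 lay above all del embryos and inside the MZKO range, and the other two het embryos lay below every del and MZKO embryo. The means were 102 ± 57.3 CPM (n = 3) in het, 124.3 ± 7.001 (n = 4) in del and 170 ± 49.3 (n = 6) in MZKO. MZKO minus het was 0.81 on the log2 scale (SE 0.33), which did not pass limma's threshold (adjusted p = 0.438), in a comparison where 0.482% of 9953 genes did. MZKO minus del was 0.39 (SE 0.30, adjusted p = 0.761), where 0.181% of genes passed. Del minus het was 0.42 (SE 0.35, adjusted p = 0.999), where 0.01% passed. MZKO minus het ranged over the alternatives from 0.55 without het 1 to 1.23 without het 7 (limma adjusted p from 0.185 to 0.886). Del minus het was 0.16 without het 1, 0.25 without het 5 and 0.84 without het 7. None of the 3 members tested in morulae, Actn1, Actn2 and Actn4, passed in any of these comparisons by limma with or without voom weights. Actn2 in MZKO against het alone had an unadjusted limma p under 0.05 (0.0231), beside 862 of all 9953 genes there.

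**Figure D1:**
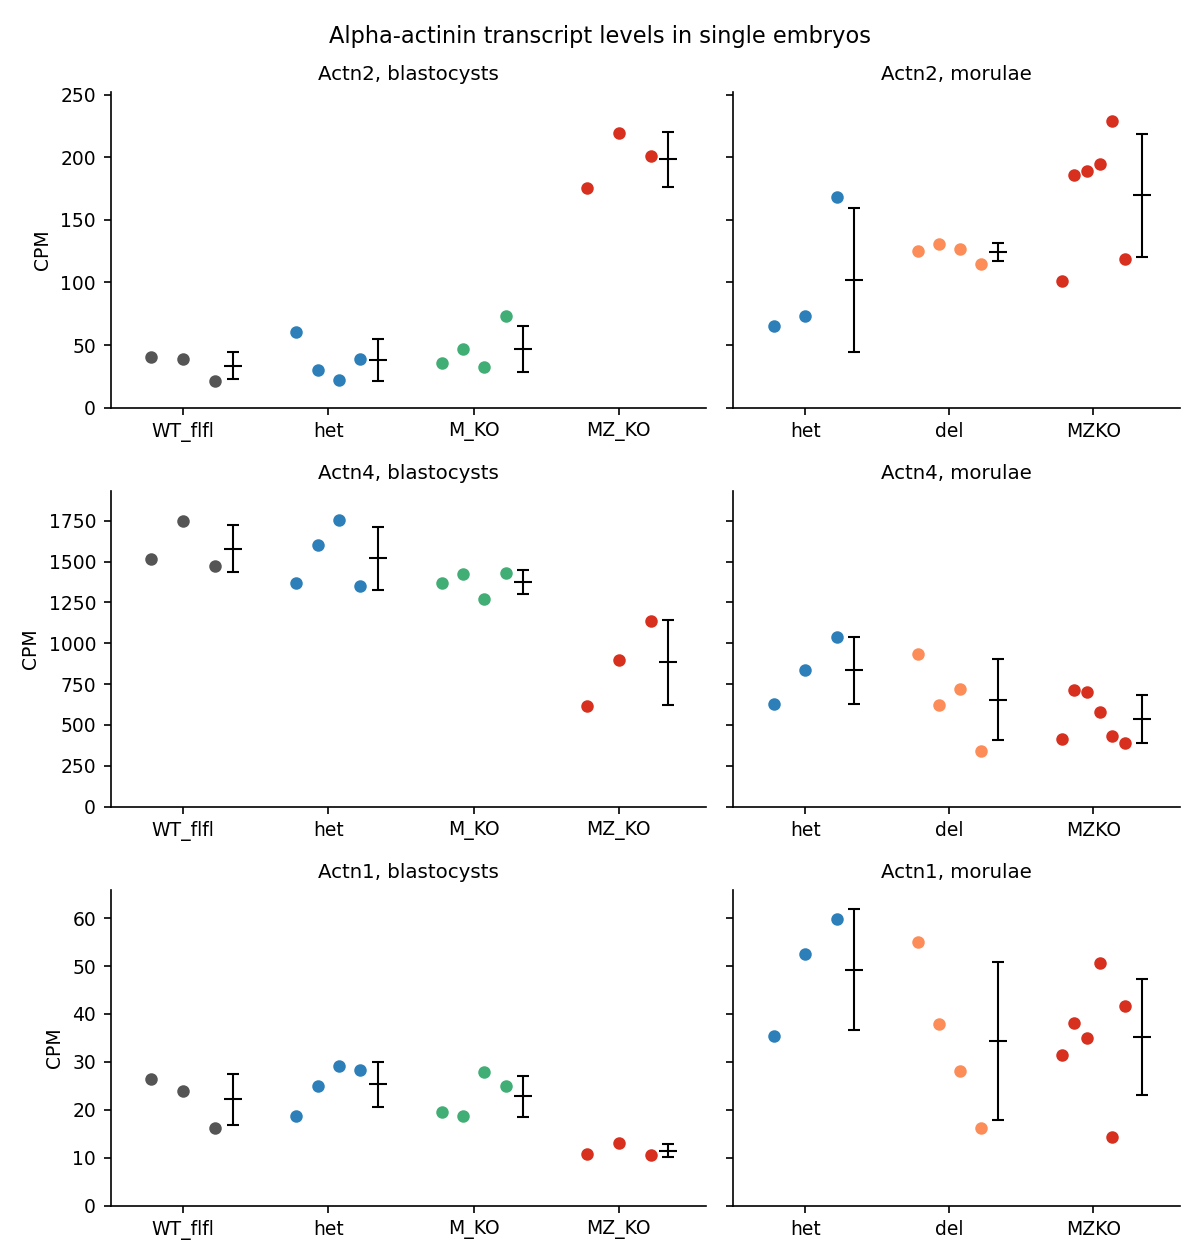
Each point is the level of 1 embryo in CPM (linear vertical axes from 0) for Actn2, Actn4 and Actn1, by title group, in blastocysts (left) and morulae (right). Black marks are the mean and SD of a group. The 3 MZ_KO blastocysts lie between 176 and 219 CPM for Actn2 and below all other blastocysts for Actn4 and Actn1. Such separation was not counted over all genes.

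Actn4, the abundant non-muscle form, went the other way. WT_flfl blastocysts had 1516, 1747 and 1476 CPM, and het blastocysts had 1372, 1599, 1757 and 1349 CPM. M_KO blastocysts had 1367, 1424, 1271 and 1431 CPM. MZ_KO blastocysts had 617, 896 and 1138 CPM, all below every other blastocyst, with embryo 2 the lowest. How many of all genes separate the MZ_KO embryos in this way was not counted. The mean fell from 1519 ± 194 CPM (n = 4) in het to 884 ± 261 (n = 3) in MZ_KO, a log2 difference of -0.82 (SE 0.16, limma adjusted p = 0.00293). In that comparison 17.9% of 9585 tested genes passed (7.02% higher and 10.8% lower in MZ_KO). Against M_KO (1374 ± 73.8 CPM, n = 4) the difference was -0.68 (SE 0.16, limma adjusted p = 0.0136), where 11.8% of genes passed (3.74% higher, 8.09% lower). Without MZ_KO 2 this call was lost (-0.44, adjusted p = 0.0719). Against WT_flfl (1580 ± 146 CPM, n = 3) the difference was -0.88, with no test, in the contrast that chose the family through Actn2. There 13.2% of genes passed (4.84% higher, 8.36% lower).

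The other blastocyst contrasts of Actn4 were small. M_KO lay below WT_flfl by 0.20 on the log2 scale (from -0.55 to 0.15 as the 95% interval), and did not pass limma's test (adjusted p = 0.973). No gene of 9585 passed in M_KO against WT_flfl, in M_KO against het or in het against WT_flfl, by limma with or without voom weights. At an unadjusted limma p under 0.05 these comparisons held 494, 638 and 187 genes. The percentage called was thus 0 in all 3. In morulae, Actn4 was at 629, 839 and 1039 CPM in het and at 935, 624, 719 and 340 CPM in del. MZKO morulae ranged from 389 to 713 CPM with a median of 508. The groups overlapped, and MZKO minus het was -0.65 (SE 0.31, limma adjusted p = 0.586). MZKO minus del was -0.23 (adjusted p = 0.850) and del minus het -0.41 (adjusted p = 0.999). The effect in blastocysts minus that in morulae was -0.17 (SE 0.37, limma adjusted p = 0.848), in a test that 1.61% of 8572 genes passed.

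Actn1, the second non-muscle form, was lower in MZ_KO blastocysts than in the other groups. Its level was 26.4, 23.96 and 16.1 CPM in WT_flfl and 18.8, 25.1, 29.2 and 28.3 CPM in het. It was 19.6, 18.7, 27.9 and 24.9 CPM in M_KO. In MZ_KO it was 10.83, 12.9965 and 10.65 CPM, and these 3 embryos were below all others, a separation not counted over all genes. The MZ_KO values rest on 260 to 289 reads each. The highest of them, 12.9965 CPM, had an exact 95% Poisson interval of 11.5 to 14.6 CPM. Such intervals cover counting error only, since reads copied by PCR are not independent molecules.

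The Actn1 mean fell from 25.3 ± 4.72 CPM (n = 4) in het to 11.5 ± 1.31 (n = 3) in MZ_KO, by 1.06 on the log2 scale (-1.06, SE 0.29, limma adjusted p = 0.0192). The call was lost without MZ_KO 2 (-1.02, adjusted p = 0.0582), without het 6 (-0.99, adjusted p = 0.0590), and with only these groups in the fit (-1.06, adjusted p = 0.0537). Against M_KO (22.8 ± 4.37 CPM, n = 4) the difference was -0.92 (SE 0.29), just outside the threshold (limma adjusted p = 0.0510), and it passed without M_KO 3 (-0.999, adjusted p = 0.0493). Against WT_flfl (22.2 ± 5.38 CPM, n = 3) it was -0.87, with no test. The groups M_KO, het and WT_flfl overlapped, with differences of -0.15 for M_KO minus het (95% interval -0.72 to 0.42), 0.05 for M_KO minus WT_flfl and 0.19 for het minus WT_flfl. In morulae the level was 35.4, 52.5 and 59.9 CPM in het and 55.1, 37.9, 28.1 and 16.3 CPM in del, the last from 28 reads with a 95% interval of 10.8 to 23.5 CPM. MZKO morulae ranged from 14.4 to 50.7 CPM with a median of 36.5, which overlapped het, and MZKO minus het was -0.53 (SE 0.44, limma adjusted p = 0.816). MZKO minus del was 0.07 (adjusted p = 0.973), turning to -0.23 without del 6, and del minus het was -0.60 (adjusted p = 0.999). Between the stages the effect differed by -0.53 (SE 0.54, limma adjusted p = 0.644). For Actn2 the same difference of effects was 1.64, with no test.

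**Figure D2:**
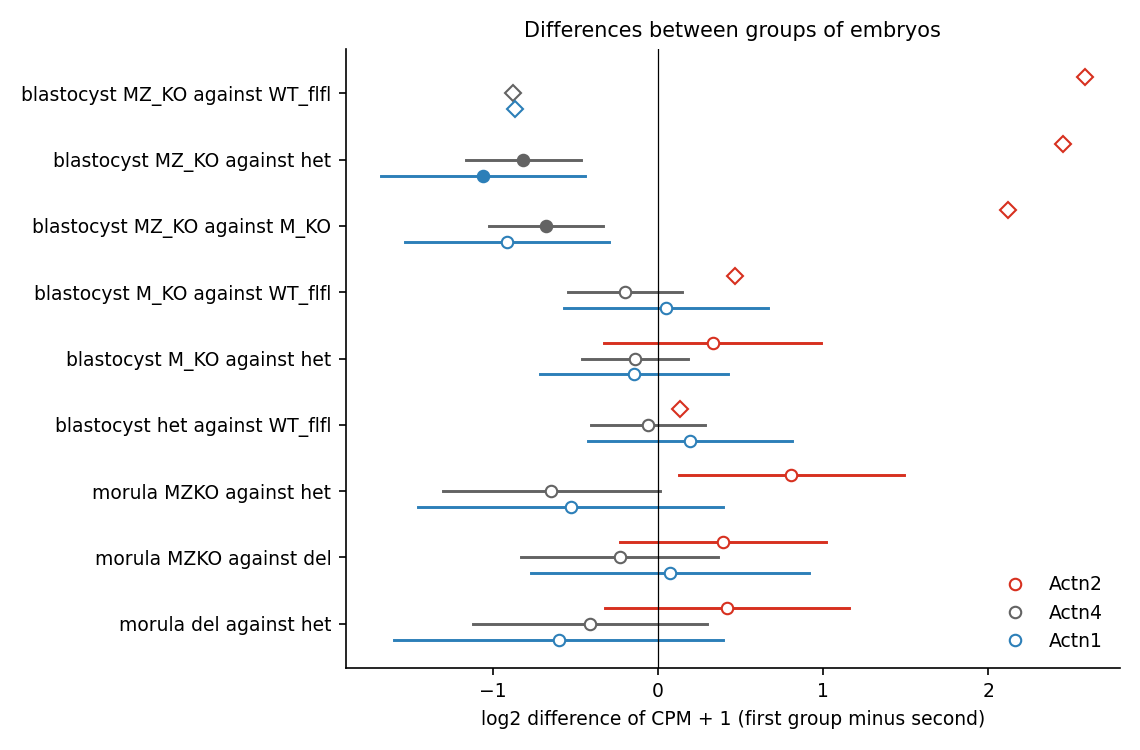
Differences of log2(CPM + 1), first group minus second (horizontal axis), for Actn2, Actn4 and Actn1 in 9 comparisons. Circles carry limma's 95% confidence interval and are filled where the adjusted p was under 0.05; diamonds are values with no test. The filled circles are Actn4 and Actn1 in MZ_KO against het and Actn4 in MZ_KO against M_KO.

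Actn3, the fast-fibre Z-disc form, was hardly detected. It had 0 reads in 8 of the 14 blastocysts, where 3 reads would correspond to between 0.111 and 0.209 CPM. The other 6 embryos had at most 96 reads, and the highest level was 3.38 CPM in het 8. All 3 WT_flfl embryos were at 0. Of the MZ_KO embryos, only number 2 had reads, at 0.375 CPM. Exact two-sided permutation tests gave p between 0.143 and 0.714 (adjusted over these tests, between 0.5 and 0.714) in the 5 comparisons that the choice did not use, and none of these designs could go below 0.0286. Actn3 did not reach the filter of 10 CPM in 3 embryos, which the other 3 members passed in both tables.

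Dividing CPM by exonic length allowed the family members to be set against each other. In WT_flfl blastocysts Actn4 was at 258 ± 23.8 CPM per kb, Actn2 at 8.84 ± 2.89 and Actn1 at 4.004 ± 0.972 (n = 3). In MZ_KO blastocysts Actn4 was at 144 ± 42.5 CPM per kb, Actn2 at 52.3 ± 5.79 and Actn1 at 2.08 ± 0.236 (n = 3). The order of the 3 genes was the same in both groups, but the make-up was not. Actn2 was 3.24 ± 0.941% of the summed alpha-actinin level per kb in WT_flfl (n = 3), 3.93 ± 2.01% in het (n = 4) and 5.08 ± 1.66% in M_KO (n = 4). In MZ_KO it was 31.0, 28.0 and 21.99%, a mean of 27.0 ± 4.60%. The summed level was 199 ± 46.2 CPM per kb in MZ_KO, 241 ± 15.9 in M_KO, 263 ± 28.5 in het and 271 ± 26.1 in WT_flfl.

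In morulae the Actn2 share was 13.5, 11.6 and 19.7% in het. The del embryos ranged from 16.8 to 34.01%, with del 6 the highest, and overlapped het. The MZKO embryos ranged from 26.6 to 45.2% with a median of 29.9%, all above the highest het embryo. The means were 14.95 ± 4.22% (n = 3), 24.1 ± 7.25% (n = 4) and 32.2 ± 6.73% (n = 6). Shares are given with no test, as a score over chosen genes. Actn4 remained the largest part in every embryo, down to 52.9% in 1 MZKO morula.

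**Figure D3:**
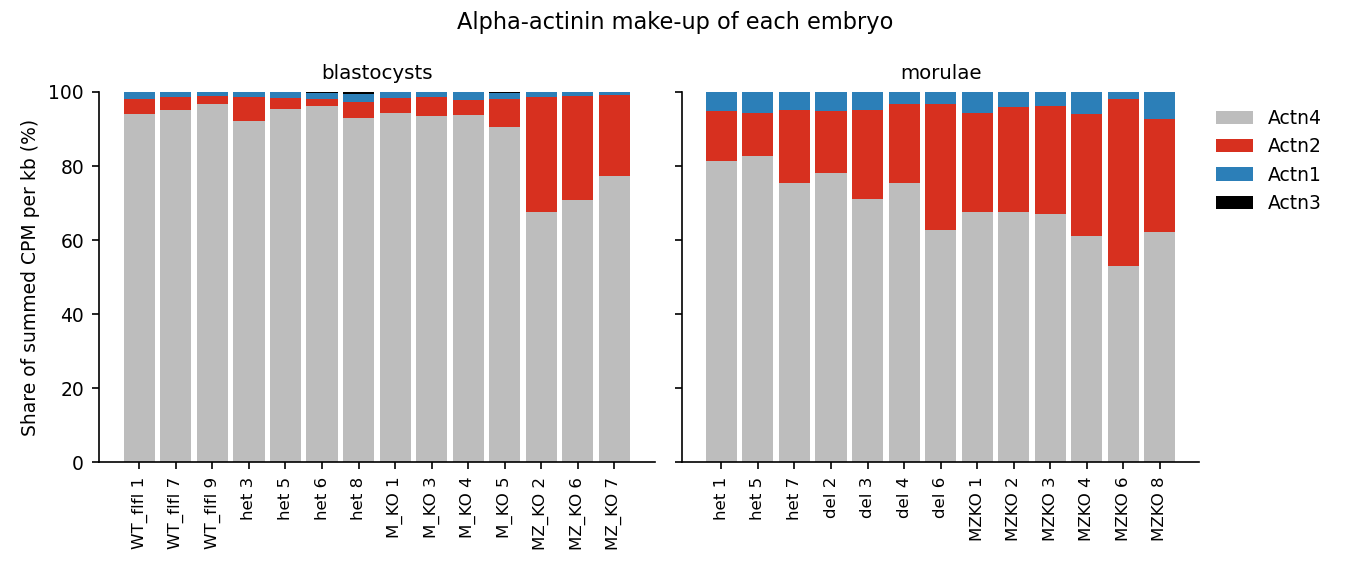
Each bar is 1 embryo and shows the percentage of its summed alpha-actinin level, in CPM per kb of exonic length, that came from Actn4, Actn2, Actn1 and Actn3. Actn2 makes up 21.99 to 31.0% in the MZ_KO blastocysts and 26.6 to 45.2% in the MZKO morulae.

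In whole embryos, fewer cells of a type and less RNA per cell cannot be told apart. Of 8 listed trophectoderm markers 7 were tested, and 3 (Eomes, Id2 and Krt8) were lower, 4 did not pass and 0 were higher by limma in MZ_KO against each of het, M_KO and WT_flfl. Among all genes, 10.8%, 8.09% and 8.36% were lower in these comparisons. Their summed level was 3892 to 5056 CPM in MZ_KO, 4801 to 7894 in het, 5767 to 9773 in M_KO and 7222 to 7645 in WT_flfl. Inner cell mass markers summed to 860 to 1045 CPM in MZ_KO, 486 to 903 in het, 722 to 868 in M_KO and 610 to 787 in WT_flfl. Of 6 listed inner cell mass markers 5 were tested, and against het 2 (Nanog and Pou5f1) were higher and 2 (Sox17 and Fgf4) lower in MZ_KO. Against M_KO and against WT_flfl, 1 (Nanog) was higher and 1 (Sox17) lower. The markers are named after their values were seen. The part of these markers in the alpha-actinin results was not tested.

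Striated muscle genes, the usual company of Actn2, were few in both tables and low in blastocysts. Of 19 Z-disc and sarcomere genes, 6 were in the blastocyst table. Their summed level was 22.5 to 46.6 CPM in MZ_KO, against 2.35 to 18.8 in WT_flfl, 7.84 to 24.5 in het and 7.83 to 28.5 in M_KO. Neb, the giant thin-filament protein nebulin, gave 21.2 ± 13.6 CPM (n = 3) of this in MZ_KO and 4.11 ± 2.31 (n = 4) in het. Ttn, the giant spring protein titin that alpha-actinin anchors at the Z-disc, gave 9.46 ± 3.82 CPM in MZ_KO and 3.20 ± 3.57 in het. Myod1, the muscle-determining transcription factor, and Tnni3, cardiac troponin I, were at 0 in all MZ_KO embryos. In morulae 8 of the 19 genes were in the table, with summed levels of 35.0 to 77.7 CPM in het, 62.1 to 164 in del and 68.9 to 205 in MZKO. Most of this was Ttn, at 46.7 ± 12.2 CPM (n = 3) in het, 98.9 ± 31.0 (n = 4) in del and 101 ± 43.2 (n = 6) in MZKO.

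The partners of alpha-actinin were followed in 7 lists of actin cytoskeleton and adhesion genes, 134 in all, of which 107 were tested in blastocysts. Against het, 9 were higher and 20 lower in MZ_KO, with a median log2 difference of -0.15, beside -0.06 over all genes. Against M_KO, 6 were higher and 10 lower, beside 11.8% of all genes called. Against WT_flfl 9 were higher and 14 lower, beside 13.2% of all genes. The share called against het, 29 of 107 genes, stands beside the 17.9% of all genes (7.02% higher and 10.8% lower). The counts per list below stand beside these same shares. In morulae 111 were tested, and 0 passed in MZKO against het by limma, where 0.482% of all genes passed. At an unadjusted limma p under 0.05 there were 13 of the 111, beside 862 of all 9953 genes.

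Among the PDZ-LIM, palladin and LIM proteins, many of which bind alpha-actinin directly, 10 of 19 listed genes were tested. Against het, 3 were higher and 1 lower in MZ_KO, with a median of 0.56. Palld, which encodes the actin-bundling scaffold palladin, rose from 17.5 ± 6.81 to 88.1 ± 30.6 CPM (log2 difference 2.29, SE 0.40, limma adjusted p = 0.00108). Pdlim7 rose from 54.7 ± 11.7 to 145 ± 54.4 CPM (1.35, adjusted p = 0.00186), and Pdlim4 from 14.95 ± 7.27 to 43.5 ± 8.20 CPM (1.57, adjusted p = 0.0147). Both encode PDZ-LIM adaptors of the actin cytoskeleton. Pdlim5, a further member of that family, was the 1 that fell (-1.26, adjusted p = 0.0154); it is named because it completes the count. Palld and Pdlim7 also passed against M_KO (2.80 and 1.05) and against WT_flfl (1.89 and 1.35). In morulae, MZKO minus het was -1.20 for Palld (adjusted p = 0.579) and 0.40 for Pdlim7 (adjusted p = 0.839).

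Of 16 other actin crosslinkers and spectrin relatives tested, 4 were lower and 1 higher in MZ_KO against het. Ezr, encoding the membrane-actin linker ezrin, fell from 214 ± 40.4 to 29.9 ± 8.13 CPM (-2.82, limma adjusted p = 1.64e-05). Lcp1, the bundling protein L-plastin, fell from 655 ± 337 to 123 ± 21.4 CPM (-2.27, adjusted p = 0.000101). Msn, the ezrin relative moesin, fell from 315 ± 101 to 90.5 ± 79.8 CPM (-2.07, adjusted p = 0.00177). Ezr, Lcp1 and Msn also passed against M_KO (-2.28, -2.06 and -1.64), where 3 of the 16 were lower and 0 higher. The actins themselves did not pass: Actb was at 3567 CPM in MZ_KO and 3861 in het (-0.12), and Actg1 at 5750 and 5483 CPM (0.07). Acta2 was at 0.284 ± 0.457 CPM in MZ_KO and 24.7 ± 32.8 in het (-3.17, limma adjusted p = 0.0990). Of the 3 actins tested in MZ_KO against het, 0 passed by limma and 1 had an unadjusted p under 0.05. At that unadjusted cutoff there were 3058 of all 9585 genes tested.

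Of 23 focal adhesion genes tested, 2 were higher and 4 lower in MZ_KO against het. Enah, an actin filament elongation factor, rose from 71.0 ± 12.9 to 191 ± 28.8 CPM (1.42, limma adjusted p = 0.000165). Rsu1 fell from 43.1 ± 16.8 to 13.3 ± 3.82 CPM (-1.57), and Ptk2, the focal adhesion kinase gene, from 87.7 ± 22.7 to 33.2 ± 7.49 CPM (-1.36). Against M_KO, within the title prefix, 1 of the 23 was higher and 1 lower. These were Enah (0.76, limma adjusted p = 0.0185) and Rsu1 (-1.62, adjusted p = 0.0151). Ptk2 did not pass there (-0.86, adjusted p = 0.0741). Vcl, encoding the alpha-actinin partner vinculin, was at 33.99 CPM in MZ_KO and 59.4 in het, which did not pass (-0.71, adjusted p = 0.213).

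Of 10 cadherin junction genes tested, 1 was higher and 3 were lower in MZ_KO against het, with a median of -0.42. Nectin2, an adhesion molecule of these junctions, rose from 232 to 358 CPM (0.61, limma adjusted p = 0.00617). It is named after its values were seen. Cdh1, encoding E-cadherin, fell from 596 ± 76.6 to 334 ± 123 CPM (-0.90, adjusted p = 0.0147). Ctnna1, encoding the alpha-catenin that links cadherins to actin and binds alpha-actinin, fell from 496 ± 67.0 to 274 ± 87.4 CPM (-0.89, adjusted p = 0.00260). Against M_KO, 1 of the 10 was higher and 1 lower. Of 25 actin turnover genes, 1 was higher and 6 were lower in MZ_KO against het, and 1 was higher and 3 were lower against M_KO. The values that follow are against het. Tmsb4x, which sequesters actin monomers, fell from 557 ± 452 to 46.4 ± 33.9 CPM (-3.56), and Actr3, a subunit of the Arp2/3 complex, fell by 0.87. Cfl2, a cofilin best known from muscle, rose from 56.2 to 99.1 CPM (0.83).

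**Figure D4:**
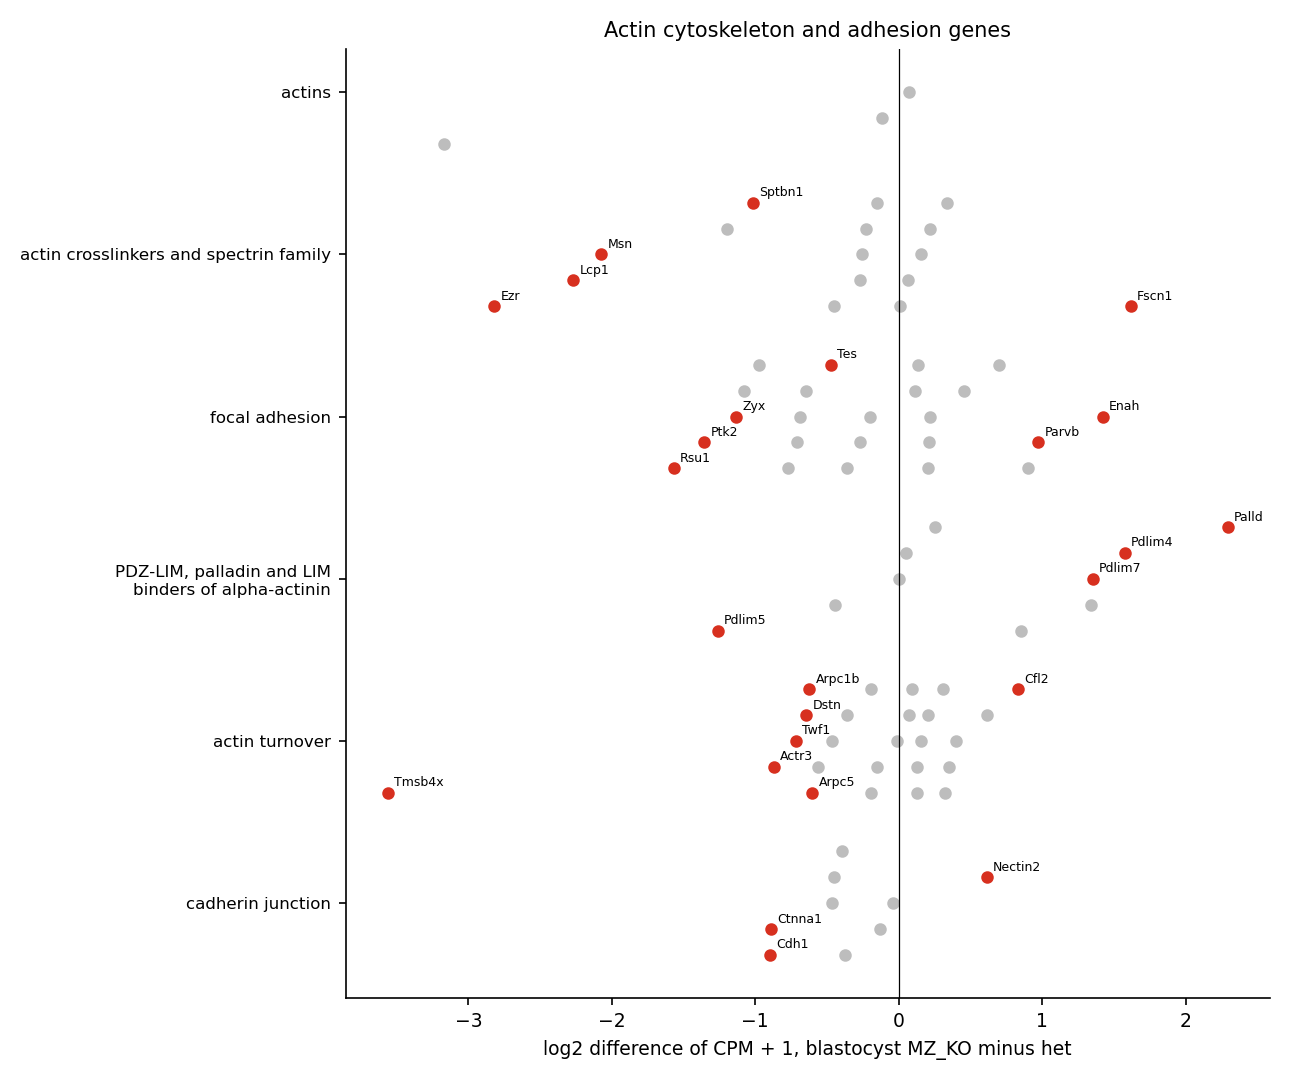
Each point is 1 tested gene of 6 of the lists (a few genes are not shown), placed by its log2 difference in MZ_KO minus het blastocysts (horizontal axis) and by its list (rows; the vertical offset within a row only separates points). Red points had a limma adjusted p under 0.05 and are named, with Palld at 2.29 and Tmsb4x at -3.56 as the extremes among them.

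Over the 14 blastocysts, the 6 tested genes whose log2 levels followed Actn2 most closely were Gsk3b (Pearson r = 0.961), Uap1 (0.953), Platr17 (0.944), Cpm (0.941), Dppa2 (0.940) and Pdpn (0.937). The points share their libraries. All 6 genes were higher in each MZ_KO embryo than in any other blastocyst, as Actn2 was. This follows largely from choosing them by their correlation with Actn2 over the same embryos, so it adds no support. Gsk3b, a kinase gene, lay between 121 and 152 CPM in MZ_KO and between 69.6 and 97.2 CPM elsewhere. Dppa2, a gene of pluripotent cells, lay between 1231 and 1297 CPM in MZ_KO and between 465 and 749 CPM elsewhere. Over the 13 morulae the same genes had r of -0.23, 0.57, 0.72, -0.06, 0.35 and -0.59, in that order. In all, 22 of 9584 genes reached r = 0.9 with Actn2 in blastocysts, and 0 of 9952 did in morulae. These values are descriptions, with no test.

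Within 500 kb of either end of Actn2 on chromosome 13, 27 genes were annotated and 6 were tested in blastocysts. Of these 6, 1 was higher and 0 were lower in MZ_KO against het, beside the 17.9% of all genes called there. Mtr (methionine synthase), 11.3 kb away, was at 11.2 CPM in MZ_KO and 23.1 in het (-0.91, SE 0.53, limma adjusted p = 0.251). Heatr1, at 54.3 kb, differed by 0.21, Lgals8, at 98.7 kb, by -0.02, Ero1lb, at 225 kb, by -0.19 and Gm48455, at 339 kb, by -0.03. None of these 5 passed. The pseudogene Gpr137b-ps, at 274 kb, rose from 251 ± 59.9 to 550 ± 64.2 CPM (1.15, SE 0.23, adjusted p = 0.00318). Its reads are uncertain where a near-identical copy could share them. It also passed against WT_flfl (0.88, adjusted p = 0.0282) but not against M_KO (0.61, adjusted p = 0.105). In morulae 7 neighbours were tested, and 0 passed in MZKO against het by limma, where 0.482% of all genes passed.

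**Figure D5:**
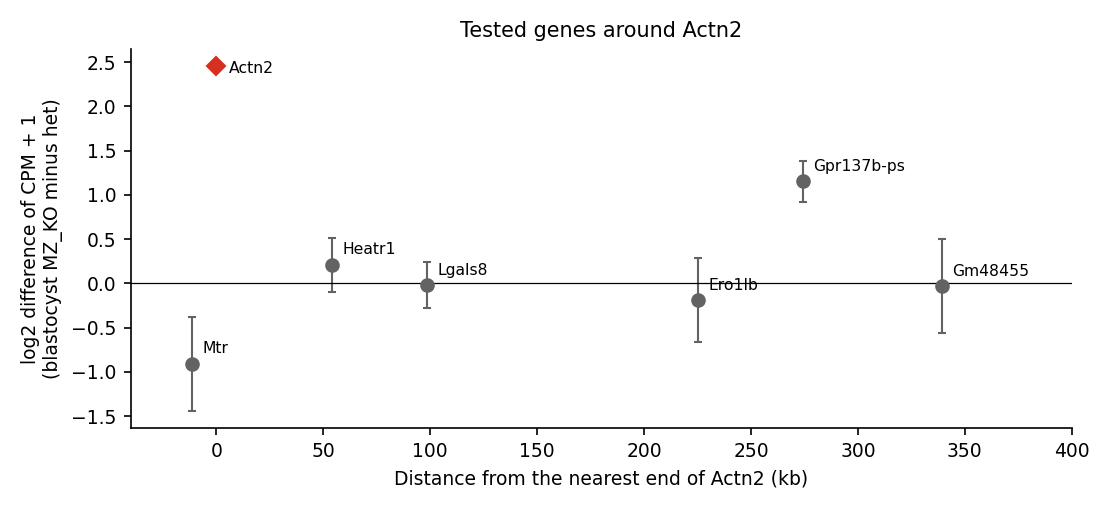
Each point is a tested gene within 500 kb of Actn2, by its distance from the nearest end of Actn2 (horizontal axis, kb) and its log2 difference in MZ_KO minus het blastocysts (vertical axis); bars are limma's standard errors. The red diamond is Actn2 at 2.45, shown with no test, and Gpr137b-ps at 1.15 is the 1 neighbour that passed.

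The members shared little sequence. Of the 50-base words of the Actn1 transcripts, 0.290% also occurred in Actn4, and none of those of Actn2 occurred in Actn1 or Actn4. Outside the family, 6.50% of the Actn1 words were shared with the overlapping antisense genes Gm47766 and Gm47767, and 4.24% of the Actn4 words with its overlapping neighbour Capn12. Because the library kit is unstranded, reads from these overlaps cannot be assigned. Capn12 reached at most 10.5 CPM in a blastocyst. Of the Actn2 words, 0.0526% also occurred in Actn3, and none occurred in genes outside the family.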

How the data were processed

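Per the labels' protocols, SMART-Seq low-input cDNA of whole embryos was sequenced on a HiSeq instrument. The submitters' processing notes list cutadapt 1.14, Bowtie2 2.2.9 and RSEM 1.3.1 with GRCm38 and mm10. For each stage, the authors deposited 1 table of normalised log2 values. From the values, these are log2 counts per 1000000 reads with an offset of 0.5 reads, scaled by table. Undoing this gave whole reads, within 0.01, for 100% of values. Entries naming no mouse gene (at most 0.0113% of reads in a blastocyst) were left out.

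Of 28 samples in the labels, 27 had a column; 1 repeat library of a het blastocyst was not analysed here, and 0 columns belonged to other samples. Symbols and positions came from GENCODE M21 (15575 blastocyst and 16731 morula genes matched), promoters from RefSeq. A gene had to reach 10 CPM in 3 or more embryos of its table. The test was limma 3.58.1 (R 4.3.3, trended variance) on log2(CPM + 1), with 1 fit per stage over all its groups. Tests were two-sided with Benjamini-Hochberg adjustment over all genes tested, at 0.05. This scale understates changes of low genes. Actn3 was compared by exact permutation. The model was tested on simulated reads. Python 3.11.15 and matplotlib 3.10.9 drew the figures.

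The members and lists were chosen with earlier results of these data known. Named genes were the members, up to 3 called genes of largest change per list and comparison, the 6 genes most correlated with Actn2, tested neighbours within 500 kb, and Ctcf; a few genes these rules name are not reported here. A permutation test planned for the Actn2 share was left out, since the share is a score over chosen genes. Nothing says which embryos share a mother, so p-values measure only the spread between these embryos. Pairs of embryos within a group differed beyond sampling noise (chi-square per degree of freedom at least 36.9). Alternatives changed the scale, filter, samples, weights and scaling; their effect is given at the end.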

Additional observations from a re-analysis of the deposited data

How the results depend on the processing

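The alternatives were the deposited offset of 0.5 reads in place of CPM + 1, no filter, only the groups compared, each embryo left out in turn, and, chosen after seeing the data, voom weights on the recovered reads, CPM of read totals, and morulae without del 6. The count models edgeR and DESeq2, planned as alternatives, were not run. Over the members, 368 of 384 alternative values counted as unchanged. For tested differences this meant the same direction and the same side of the threshold. For differences given with no test it meant the same direction and a shift smaller than the SD within groups. Of the others, 4 lost the call, 1 gained it and 11 changed sign. The cause was not tested. With 1 embryo left out, Actn1 in MZ_KO against het ranged from -1.19 to -0.99 (-1.06 with only these groups), Actn1 in MZ_KO against M_KO from -0.9999 to -0.82 and Actn4 in MZ_KO against M_KO from -0.88 to -0.44. Sign changes were all in differences that did not pass or were untested. They were Actn1 in M_KO against WT_flfl (-0.16 to 0.18), in het against WT_flfl (-0.0092 to 0.33) and in MZKO against del (-0.23 to 0.34, and -0.19 with voom weights), Actn2 in het against WT_flfl (-0.17 to 0.35), Actn4 in het against WT_flfl (-0.13 to 0.013) and the stage difference of Actn4 (-0.37 to 0.066). The Actn2 share, MZ_KO minus het, was 23.1 percentage points per kb and 16.2 without division by length.

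The number of genes called fell from 1265 to 826 without WT_flfl 1 and 783 without WT_flfl 7 (MZ_KO against WT_flfl), from 1711 to 1058 without MZ_KO 2 (against het), and from 1133 to 724 without M_KO 1 and 711 without MZ_KO 2 (against M_KO). In morulae, MZKO against het gave 48 genes, 24 with voom weights, 90 without MZKO 1 and 29 without het 7. MZKO against del gave 18, and 2 with voom weights. Del against het gave 1, 2 with CPM of read totals or without del 3, and 3 without het 1. Of the groups compared, only M_KO with het and MZKO with del share 2 or more embryo numbers, between different title prefixes. Their 6 same-numbered pairs did not all deviate together (correlations from -0.144 to 0.140), and the labels do not say whether these embryos are paired. As a replicate block they gave 4 genes in place of 0 in M_KO against het and 22 in place of 18 in MZKO against del. No member's call changed. By Spearman correlation, 3 of the 6 genes most like Actn2 were kept. Depth limits Actn3 and the values of del 6.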
